A study of Homo sapiens with 3 samples.

Results

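Receptors and ligands of the epidermal growth factor (EGF) receptor family were measured in HCT116 cells after silencing of *HOXA5* short RNA. The family is taken here as 8 genes, the 3 receptors *EGFR*, *ERBB2* and *ERBB3* and the 5 ligands *AREG*, *EREG*, *TGFA*, *HBEGF* and *BTC*. They were chosen by name, and every gene probe whose transcript accession matched one of them was kept, which gave 14 of 50599 probes and 8 of 21614 named genes. HCT116 is an established human colon cancer line, and *HOXA5* short RNA is a non-coding transcript of the *HOXA6*-*HOXA5* locus, whose relation to EGF signaling was a question of the study. The cells of all 3 groups, from this 1 line, received control siRNA, siRNA #7 or siRNA #8 for 48 h, and 400 ng of total RNA from each treatment was labeled with Cy3 for 1 array. The control siRNA array is the reference of every ratio to control, and both such ratios share it. The names of the deposited files number the siRNAs differently from the labels, and each array is called here by its label. All 3 arrays lay on 1 slide and were scanned together, so the place on the slide and the treatment cannot be told apart. In these bulk samples, fewer cells making a transcript and less RNA per cell cannot be told apart.

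The EGF receptor family works at the cell surface. Its ligands are made as membrane-anchored precursors that metalloproteases cut free, and a bound ligand brings receptors together in pairs whose kinase domains then phosphorylate each other. EGFR binds AREG, EREG, TGFA, HBEGF and BTC, ERBB3 binds neuregulins and has a very weak kinase, and ERBB2 has no known ligand and serves as the partner of the others. Colon epithelium and many colon tumors depend on this pathway, and AREG and EREG are the ligands best known in colorectal cancer.

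Both siRNAs were designed against the same stretch of RNA, which is why they are shown together. Capitals mark the 17 bases that the 21-base sequences have in common, and siRNA #8 starts 4 bases further along.
siRNA #7: gagaAACUGAAAGACAACAUA
siRNA #8: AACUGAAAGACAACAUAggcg

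With 1 array per condition there is no replicate and no test between conditions, and each log2 ratio is given beside the spot-to-spot SD of that ratio. This SD came from the 902 probes printed 10 times on each array. For a probe printed once it covers the spotting and scanning of the array and leaves out the culture, the RNA and the labeling. A level is the log2 of the spot intensity over the 75th percentile of its array, and levels of different probes cannot be set against each other. That percentile lay 0.33 lower on the log2 scale with siRNA #7 and 0.30 lower with siRNA #8 than with control siRNA, whereas the 10 E1A spike-in probes differed by -0.0020 and -0.063. Scaling to the spike-ins therefore moved the median log2 ratio of all genes by -0.32 with siRNA #7 and by -0.24 with siRNA #8. A probe passed if it was well above background on all 3 arrays, and 12031 named genes had such a probe. All 5 epithelial markers (*EPCAM*, *CDH1*, *KRT8*, *KRT18* and *KRT19*) passed, while *PTPRC* of blood cells, *COL1A2* of fibroblasts and *PECAM1* of endothelium were on no array well above background. *COL1A1*, another fibroblast collagen, did pass, with intensities of 48.1, 28.2 and 35.9 on the control siRNA, siRNA #7 and siRNA #8 arrays. The probe of *HOXA5* itself had log2 ratios of -0.36 with siRNA #7 (spot-to-spot SD 0.25) and -0.23 with siRNA #8 (0.26), and whether that probe lies in the short RNA is not given in the sources used here.

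Of the 14 family probes, 9 passed, and they covered 7 of the 8 genes. *BTC* had no passing probe. The levels of all 14 probes are plotted by array.

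**Figure D1:**
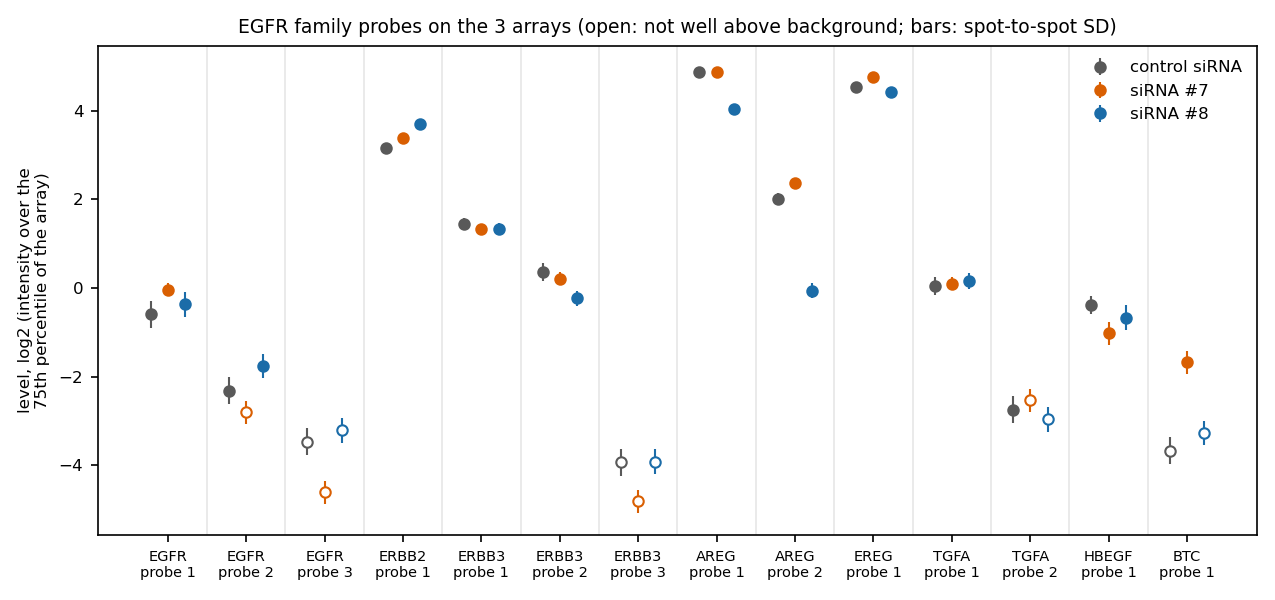
Levels of the 14 probes of the EGFR family on the control siRNA, siRNA #7 and siRNA #8 arrays. The y axis is the log2 intensity over the 75th percentile of the array, bars are 1 spot-to-spot SD, and open circles mark probes not well above background on that array. The clearest gap is at AREG, where siRNA #8 lies below the other arrays in both probes.

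Among the receptors, *ERBB2* was higher with both siRNAs, though with siRNA #7 neither under spike-in scaling nor under normexp. *EGFR* was higher with siRNA #7, though within 1 spot-to-spot SD of control under normexp, spike-in scaling or removal of neighbouring spots. *ERBB3* stayed near control in its brightest probe under the scaling used here, and was lower under spike-in scaling. *EGFR* (chromosome 7) encodes the receptor that gives the family its name. Its brightest probe, A_23_P215790 for transcript NM_005228, had intensities of 35.1 after control siRNA, 40.9 after siRNA #7 and 33.2 after siRNA #8. Scaled to the arrays, its log2 ratio was 0.55 with siRNA #7 (spot-to-spot SD 0.34) and 0.22 with siRNA #8 (SD 0.41). The first ratio was 1.62 times its SD and the second 0.539 times, and 8.91% of the other passing probes lay at least as far up with siRNA #7. The 8 passing spots around it had median log2 ratios of 0.24 and 0.38. With the neighbouring spots removed, the *EGFR* ratio was 0.31 with siRNA #7 and -0.16 with siRNA #8, so that the direction with siRNA #8 turned. Under all 10 alternatives the siRNA #7 ratio stayed above 0, between 0.09 and 0.55. It was within its SD of 0 under normexp (0.09), spike-in scaling (0.23) and removal of neighbouring spots. The SD is that of the scaling used here. Normexp adds an offset of 50, where this probe read 33.2 to 40.9, and such an offset draws ratios of dim probes toward 0. Its share in the change was not tested. Some alternatives could not change the sign. With 1 passing probe, the mean of the probes and the looser filter return the same value. The deposited values differ by a constant per array, which shifted ratios by -0.0015 with siRNA #7 and -0.00086 with siRNA #8. Such a shift is too small to turn these ratios.

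The other *EGFR* probes were dim. They are annotated to NM_201283 and NM_201282, transcripts of truncated receptors without the kinase domain. The NM_201283 probe read 10.6 after control siRNA, 6.02 after siRNA #7 and 12.6 after siRNA #8, and was not well above background with siRNA #7. The siRNA #7 value was thus at least 1.15-fold lower than control, where the brightest probe was higher, and the 10 passing spots around this probe had a siRNA #7 median of -0.96 on the log2 scale. With siRNA #8 its log2 ratio was 0.56 (spot-to-spot SD 0.41). The NM_201282 probe read 4.75, 1.72 and 4.60 and was on no array well above background, so it gives no ratio.

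*ERBB2* (chromosome 17), the receptor without a ligand of its own, was printed 10 times on each array and therefore had the smallest spot-to-spot error of the members. On the control siRNA array its 10 spots read from 438 to 509 with a median of 466. With siRNA #7 the 7 spots without an outlier flag read from 413 to 479 with a median of 445, and with siRNA #8 the 10 spots read from 507 to 620 with a median of 565. Raw intensities with siRNA #7 thus overlapped those of control siRNA. After scaling, the levels were 3.15 ± 0.06 (SD, n = 10 spots), 3.40 ± 0.07 (n = 7 spots) and 3.72 ± 0.08 (n = 10 spots), and the spots of the 3 arrays did not overlap. The log2 ratio was 0.24 with siRNA #7 (SD of a mean over spots 0.05) and 0.56 with siRNA #8 (SD 0.05). Spot by spot, siRNA #8 was above control in 10 of 10 pairs, by 0.37 to 0.81. Between the siRNA arrays, which leaves the control array out, siRNA #8 was higher by 0.32 (SD 0.05). Of the 598 passing probes printed 10 times, 38 others lay at least as far up with siRNA #8 and 104 others with siRNA #7. Spike-in scaling turned the siRNA #7 ratio to -0.082 and left that of siRNA #8 at 0.32. Under normexp the siRNA #7 ratio was 0.0078, within its SD of 0, and the siRNA #8 ratio 0.34.

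**Figure D2:**
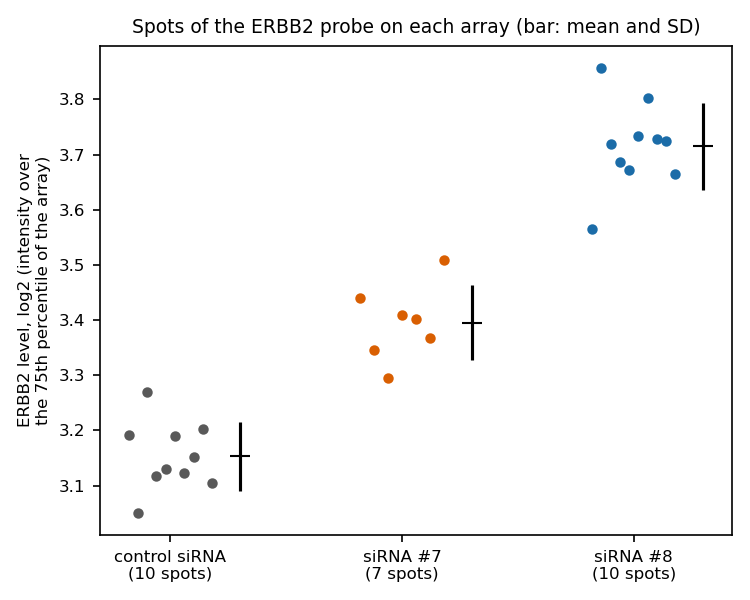
Each circle is 1 spot of the ERBB2 probe on 1 array, as log2 intensity over the 75th percentile of that array, and the bars are the mean and SD over spots. Control siRNA spots lie between 3.05 and 3.27, siRNA #7 spots between 3.29 and 3.51, and siRNA #8 spots between 3.57 and 3.86.

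*ERBB3* (chromosome 12), the receptor for neuregulins, had 3 probes, of which 2 passed. The brightest (A_33_P3211569) read 145 after control siRNA, 105 after siRNA #7 and 108 after siRNA #8, for log2 ratios of -0.13 (spot-to-spot SD 0.16) and -0.12 (SD 0.18). Both lay within 1 SD of 0. Under spike-in scaling they were -0.45 and -0.36, past 1 SD, and under normexp the siRNA #8 ratio was -0.25. The median log2 ratio of the spots around it was -0.64 after siRNA #8, and with these removed the *ERBB3* ratio was 0.51. The second passing probe (A_23_P349416) read 67.7, 48.6 and 36.3, for log2 ratios of -0.15 with siRNA #7 (SD 0.25) and -0.59 with siRNA #8 (SD 0.26). It was 1.51-fold lower with siRNA #8, and the 2 probes thus differed by 0.47 in that ratio. Among the 2712 genes with at least 2 passing probes, 26.9% of the others differed at least as much. The third probe, at 3.44, 1.49 and 2.82, was on no array well above background.

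Among the ligands, *AREG* stood at a lower level with siRNA #8 in both of its probes, and *HBEGF* was lower with siRNA #7. *EREG* was slightly higher with siRNA #7 except under spike-in scaling, and within 1 spot-to-spot SD of control under normexp or removal of neighbouring spots. *TGFA* was within 1 spot-to-spot SD of control, except with siRNA #7 under spike-in scaling. *AREG* (chromosome 4) encodes amphiregulin, a ligand of EGFR. Its brightest probe (A_23_P259071) read 1542 after control siRNA, 1238 after siRNA #7 and 703 after siRNA #8. The log2 ratio was 0.01 with siRNA #7 (spot-to-spot SD 0.14) and -0.83 with siRNA #8 (SD 0.16), which is 1.78-fold lower. The second probe (A_33_P3419190), for the same transcript NM_001657, read 213, 217 and 41.1. Its log2 ratio was 0.35 with siRNA #7 (SD 0.16) and -2.07 with siRNA #8 (SD 0.21), which is 4.20-fold lower. Both probes put siRNA #8 below control, and they differ in how far. The older build on which the array was annotated held a near-identical copy of the gene, *AREGB*, so the probes may read both.

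The same was seen without the control array. From siRNA #7 to siRNA #8 the *AREG* probes had log2 ratios of -0.84 (spot-to-spot SD 0.15) and -2.42 (SD 0.20). Only 11 of the other 18120 passing probes lay at least as far down as the second probe in that comparison, and 22 did so from control siRNA to siRNA #8. For the brightest probe these shares were 5.01% and 4.51%. The 2 probes differed by 1.24 in the ratio of siRNA #8 to control siRNA, and 3.50% of the other genes with at least 2 passing probes differed as much. The 12 passing spots around the second probe had a siRNA #8 median of -0.61 on the log2 scale. With the neighbouring spots removed, the siRNA #8 ratio was -1.46 for the second probe and -0.70 for the brightest. Across the alternatives the siRNA #8 ratio stayed between -1.45 and -0.70 for *AREG* and between -2.31 and -1.37 for its second probe, whereas the siRNA #7 ratio of *AREG* took either sign, from -0.31 to 0.18.

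*EREG* encodes epiregulin and is the protein-coding neighbour of *AREG* on chromosome 4, in the order *EPGN*, *EREG*, *AREG*, *BTC*. Its single probe (A_23_P41344) read 1227 after control siRNA, 1143 after siRNA #7 and 916 after siRNA #8. The log2 ratio was 0.22 with siRNA #7 (spot-to-spot SD 0.14), which turned to -0.10 under spike-in scaling, and -0.12 with siRNA #8 (SD 0.15). The siRNA #7 ratio was 0.098 under normexp and 0.089 with the neighbouring spots removed, both within 1 SD of 0. The siRNA #8 ratio was within 1 SD of 0 but passed it under 4 alternatives, at -0.18 with the median of each array, -0.25 with the neighbouring spots removed, -0.30 under normexp and -0.36 under spike-in scaling. From siRNA #7 to siRNA #8, without the control array, the *EREG* log2 ratio was -0.34 (SD 0.15), on the same side as that of *AREG* and smaller. *EPGN*, the ligand epigen, was on no array well above background.

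The upstream sequences of these neighbouring ligand genes are shown because their ratios with siRNA #8 differed in size. They are the 250 bases before the start site in RefSeq, on the plus strand of GRCh38.p14, *AREG* at chr4:74444886-74445135 and *EREG* at chr4:74364895-74365144. Capitals mark matches on either strand to the cAMP response element TGACGTCA and to the TATA box TATAAA, motifs that do not overlap each other.
AREG: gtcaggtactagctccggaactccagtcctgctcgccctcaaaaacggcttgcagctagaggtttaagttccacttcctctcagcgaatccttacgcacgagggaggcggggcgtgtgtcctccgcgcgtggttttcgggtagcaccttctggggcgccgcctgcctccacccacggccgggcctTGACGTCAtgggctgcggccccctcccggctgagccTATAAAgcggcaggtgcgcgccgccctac
EREG: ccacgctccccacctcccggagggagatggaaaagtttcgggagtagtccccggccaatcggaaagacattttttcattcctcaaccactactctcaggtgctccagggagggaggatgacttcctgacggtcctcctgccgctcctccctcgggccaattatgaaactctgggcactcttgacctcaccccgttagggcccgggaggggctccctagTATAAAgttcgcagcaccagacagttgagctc
Both windows held the TATA box, which 10.7% of the 35116 promoters of the same length also hold, and the cAMP response element was in the *AREG* window alone of the members in the table, against 1.65% of all promoters. The 329 genes with that element and a passing probe had a median of -0.02 in the log2 ratio of siRNA #8, and 13.1% of them were at least 1.5-fold lower, beside 10.3% of all genes with a passing probe. With siRNA #7, 5.78% of them were at least 1.5-fold lower, beside 6.93% of all genes. An AP-1 site and a GC box were also searched for. The *AREG* window held the GC box, as did 42.6% of all promoters, and not the AP-1 site. The match to the cAMP response element is a description of the letters in this window, and a relation to the *AREG* ratio was not tested.

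**Figure D3:**
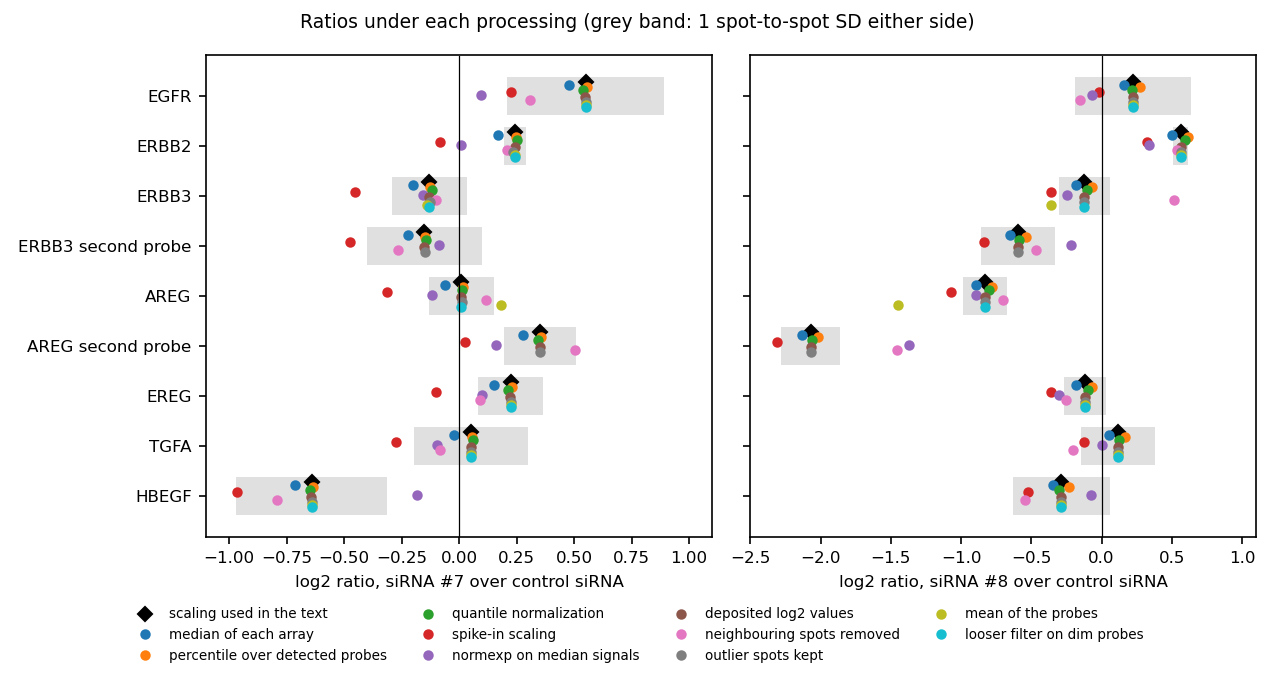
Log2 ratio to control siRNA of each passing family probe with siRNA #7 (left) and siRNA #8 (right). The black diamond is the scaling used in the text, the colored circles are the alternatives, and the grey band is 1 spot-to-spot SD either side. AREG and its second probe stay below 0 with siRNA #8 under all of them, and ERBB2 crosses 0 with siRNA #7 under spike-in scaling.

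*HBEGF* (chromosome 5), the heparin-binding ligand of EGFR, read 40.5 after control siRNA, 20.7 after siRNA #7 and 27.0 after siRNA #8 in its single probe (A_24_P140608). The log2 ratio was -0.64 with siRNA #7 (spot-to-spot SD 0.33), which is 1.56-fold lower, and -0.29 with siRNA #8 (SD 0.34). The siRNA #7 ratio was 1.96 times its SD, and the siRNA #8 ratio was within 1 SD of 0. Both kept their sign under the 10 alternatives, some of which could not change it. For a single probe the mean of the probes and the looser filter return the same value. The deposited values differ by a constant per array, and the shift of -0.0015 with siRNA #7 and -0.00086 with siRNA #8 is too small to turn these ratios. The siRNA #7 ratio ranged from -0.97 to -0.18 and the siRNA #8 ratio from -0.55 to -0.08. Passing spots around it had median log2 ratios of 0.15 and 0.26.

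*TGFA* (chromosome 2), transforming growth factor alpha, read 54.4, 45.0 and 47.8 on the control siRNA, siRNA #7 and siRNA #8 arrays in its brightest probe. Its log2 ratios were 0.05 with siRNA #7 (spot-to-spot SD 0.25) and 0.12 with siRNA #8 (SD 0.26), both within 1 SD of 0. *TGFA* had -0.27 with siRNA #7 under spike-in scaling, past 1 SD, and -0.20 with siRNA #8 with the neighbouring spots removed. Its second probe read 7.83, 7.26 and 5.47, was well above background with control siRNA alone, and gives no fold.

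*BTC* (chromosome 4), betacellulin, a ligand of EGFR and ERBB4, read 4.14 after control siRNA, 13.2 after siRNA #7 and 4.41 after siRNA #8. Only the siRNA #7 value was well above background. It was at least 2.48-fold higher than control siRNA and at least 1.76-fold higher than siRNA #8, each against the lowest intensity among probes printed once that were well above background on the dim array. The 16 passing spots around it had a siRNA #7 median of -0.48 on the log2 scale. This is a single spot at a low intensity.

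Few members passed a fold threshold. With siRNA #7, 1 of 7 genes with a passing probe was at least 1.5-fold lower (*HBEGF*), beside 6.93% of all 12031 genes, and 0 were at least 1.5-fold higher, beside 7.56%. With siRNA #8, 1 of 7 was at least 1.5-fold lower (*AREG*), beside 10.3%, and 0 were at least 1.5-fold higher, beside 7.79%. Past 2-fold either way the count was 0 of 7 with each siRNA, beside 3.77% with siRNA #7 and 4.98% with siRNA #8. From siRNA #7 to siRNA #8, 1 of 7 was at least 1.5-fold lower (*AREG*), beside 11.6%, 0 were at least 1.5-fold higher, beside 8.89%, and 0 passed 2-fold, beside 5.64%. The 7 genes had median log2 ratios of 0.05 and -0.12, beside 0.01 and 0.01 over all genes. The 3 receptors had medians of 0.24 and 0.22, and the 4 ligands with a passing probe 0.03 and -0.20. With both siRNA arrays joined as 1 silenced group in limma, which leaves 1 residual degree of freedom and takes the siRNAs as replicates of each other, 0 of 7 members had an adjusted p under 0.05, beside 0.00552% of the 18121 passing probes. At an unadjusted p under 0.05 the counts were 0 of 7 members and 659 of the passing probes.

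**Figure D4:**
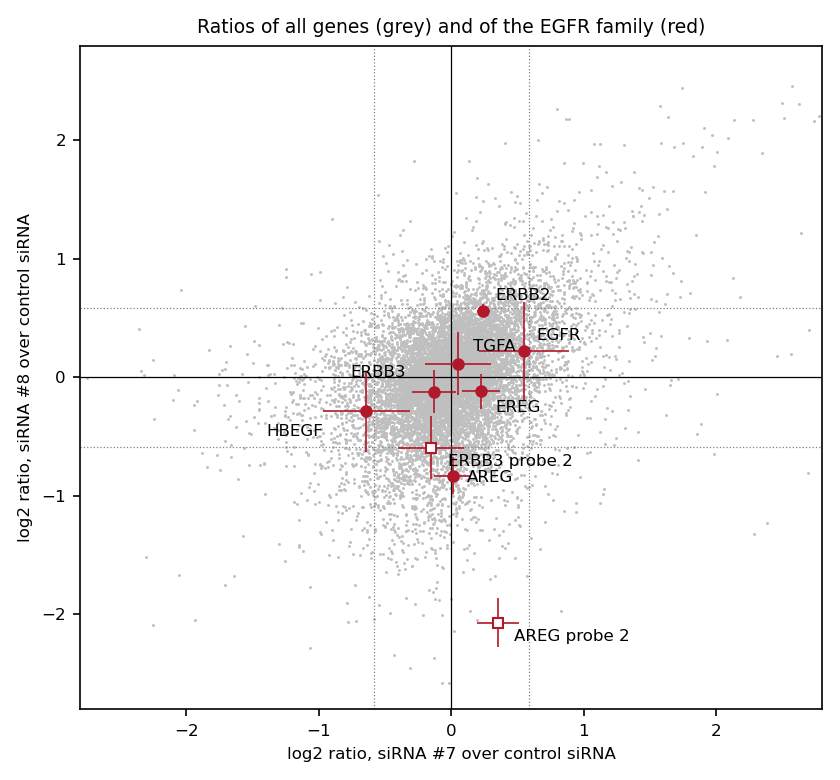
Log2 ratio to control siRNA with siRNA #7 (x axis) and siRNA #8 (y axis), for 12031 genes by their brightest passing probe (grey; 10 genes lie outside the axes) and for the EGFR family (red, bars of 1 spot-to-spot SD; open squares are second probes). Both axes share the control array, so the spread along the diagonal includes its error. Most members lie within the dotted 1.5-fold lines, HBEGF lies past them on the x axis, and AREG and both second probes past them on the y axis.

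The 3 genes closest to *AREG* in these 2 ratios, of 12030 others, were *BLTP2*, *H2AC17* and *DCBLD1*. Their log2 ratios with siRNA #7 and siRNA #8 were 0.04 and -0.82 for *BLTP2*, 0.00 and -0.81 for *H2AC17*, and 0.02 and -0.86 for *DCBLD1*, at Euclidean distances of 0.0270, 0.0270 and 0.0274. *H2AC17* belongs to the histone H2A family, whose near-identical copies can share a probe. In all, 46 genes lay within a distance of 0.1, less than the spot-to-spot SD of the *AREG* ratios.

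The other parts of the pathway were described by 52 genes, of which 42 had a passing probe, each counted by its brightest. Their median log2 ratios were 0.01 and 0.04 with siRNA #7 and siRNA #8, and they turned to -0.32 and -0.20 under spike-in scaling. With siRNA #7, 1 of 42 was at least 1.5-fold higher, beside 7.56% of all genes, and 2 were lower, beside 6.93%. With siRNA #8, 4 were higher, beside 7.79%, and 4 were lower, beside 10.3%. Under spike-in scaling, which lowers all ratios, these counts were 1 higher and 10 lower with siRNA #7 and 2 higher and 6 lower with siRNA #8. The median over all genes was then -0.31 with siRNA #7 and -0.23 with siRNA #8. Shares of all genes past 1.5-fold under the other scalings are not given, so counts under them, here and below, stand without a share. *EPS15*, *STAM*, *CBL*, *CBLB*, *NRG1*, *PTPN11* and *AKT2* are named below after their values were seen.

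Of the 7 other ligands and receptors, *NRG2*, a neuregulin that binds ERBB3 and ERBB4, was the only one with a passing probe. It was past 1.5-fold the same way with both siRNAs under the scaling used here and under both others tried. By brightest passing probes no other pathway gene was, except *PTPRJ* under spike-in scaling (-0.70 and -1.13). A dimmer *PTPN11* probe, given below, was lower past 1.5-fold with both siRNAs. The share of all genes past 1.5-fold the same way is not given here. *NRG2* read 7.55 after control siRNA, 12.9 after siRNA #7 and 11.8 after siRNA #8, for log2 ratios of 1.11 (spot-to-spot SD 0.40) and 0.95 (SD 0.41). These values were close to background, and both ratios rest on the same control spot. Both siRNA values were above that of control siRNA by more than 2 SD. *NRG1*, the neuregulin best known as a ligand of ERBB3, passed the background flag after control siRNA and after siRNA #7 in both of its probes, but not after siRNA #8. Those probes read 15.5, 19.9 and 6.67, and 12.6, 14.4 and 6.67. The siRNA #8 level was at least 1.64-fold lower than control in one probe and at least 1.34-fold lower in the other. EGF itself, *ERBB4*, *NRG3* and *NRG4* were on no array well above background.

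Among the 7 genes of ligand shedding, 5 had a passing probe. *FRMD8*, which stabilises the iRhom and ADAM17 complex that cuts ligand precursors, read 423, 488 and 194. Its log2 ratio was 0.53 with siRNA #7 (spot-to-spot SD 0.15) and -0.82 with siRNA #8 (SD 0.18), so that the siRNA arrays lay on either side of control. *ADAM10*, a protease that sheds EGF and betacellulin, read 110, 118 and 77.5, for log2 ratios of 0.43 (SD 0.16) and -0.20 (SD 0.21). Under spike-in scaling these ratios were 0.10 and -0.44. The second passing *ADAM10* probe had ratios of 0.25 (SD 0.25) and 0.0079 (SD 0.26). These 5 genes had medians of 0.28 and 0.01.

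All 13 genes of receptor brakes and trafficking passed, with medians of -0.07 and -0.07. With siRNA #7, *EPS15*, an adaptor of receptor endocytosis, was lower by a log2 ratio of -0.77 (spot-to-spot SD 0.25). *STAM*, which sorts ubiquitinated receptors on endosomes, had a ratio of -0.62 (SD 0.33). With siRNA #8, *PTPRJ*, a phosphatase that acts on EGFR, read 53.1 against 122 with control siRNA and had a log2 ratio of -0.89 (SD 0.21). *HGS*, the endosomal partner of STAM, read 3395 against 7434 and had a ratio of -0.83 (SD 0.15), where the spots around it had a median of -0.47. *CBL*, the ligase that ubiquitinates EGFR, had a ratio of -0.68 with siRNA #8 (SD 0.26), and its relative *CBLB* one of 0.80 (SD 0.26). The 2 ligases thus lay on opposite sides of control in the same array.

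Of the 16 adaptors and genes of the Ras arm, 14 passed and 0 reached 1.5-fold with either siRNA by the brightest passing probe. The shares of all genes at least 1.5-fold higher and lower were 7.56% and 6.93% with siRNA #7, and 7.79% and 10.3% with siRNA #8. With siRNA #7 the Ras arm count was 1 under the median of each array (*MAP2K1*, at -0.59) and 4 under spike-in scaling. A dimmer passing probe of *PTPN11* read 121, 40.8 and 56.4, for log2 ratios of -1.24 (SD 0.19) and -0.80 (SD 0.21). The brighter *PTPN11* probes had ratios of -0.01 and -0.14, and of 0.06 and -0.14. *MAP2K1* and *MAP2K2*, the related kinases that activate ERK, lay on opposite sides of control with siRNA #7 under the scaling used here. *MAP2K1* read 377, 210 and 284, for log2 ratios of -0.52 (spot-to-spot SD 0.16) and -0.11 (SD 0.18). *MAP2K2* read 514, 554 and 594, for ratios of 0.43 (SD 0.15) and 0.51 (SD 0.17). The spots around it had median ratios of 0.29 and 0.30. Under spike-in scaling the *MAP2K2* ratio with siRNA #7 was 0.11, within its SD of 0. All 9 genes of the PI3K arm and other effectors passed. With siRNA #8, 2 of them were at least 1.5-fold higher, beside 7.79% of all genes, and 0 were lower, beside 10.3%. The count of higher genes was 1 under the median of each array and 1 under spike-in scaling. *STAT3*, a transcription factor that receptors and cytokines activate, was measured by a probe printed 10 times and read 69.4, 52.9 and 107, for log2 ratios of -0.07 (SD 0.08) and 0.93 (SD 0.08). Its second probe had ratios of -0.32 (SD 0.33) and 0.26 (SD 0.26), both within 1 SD of 0, so the siRNA #8 difference rests on the brighter probe. *PIK3R2*, a regulatory subunit of PI3K, read 3486, 3650 and 4259, for ratios of 0.39 (SD 0.14) and 0.59 (SD 0.15). It passed 1.5-fold narrowly, and its siRNA #8 ratio was 0.53 under the median of each array and 0.35 under spike-in scaling. With siRNA #8, *AKT2* had a ratio of 0.41 (SD 0.17) in its brightest probe and -0.77 (SD 0.34) in its second passing probe.

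**Figure D5:**
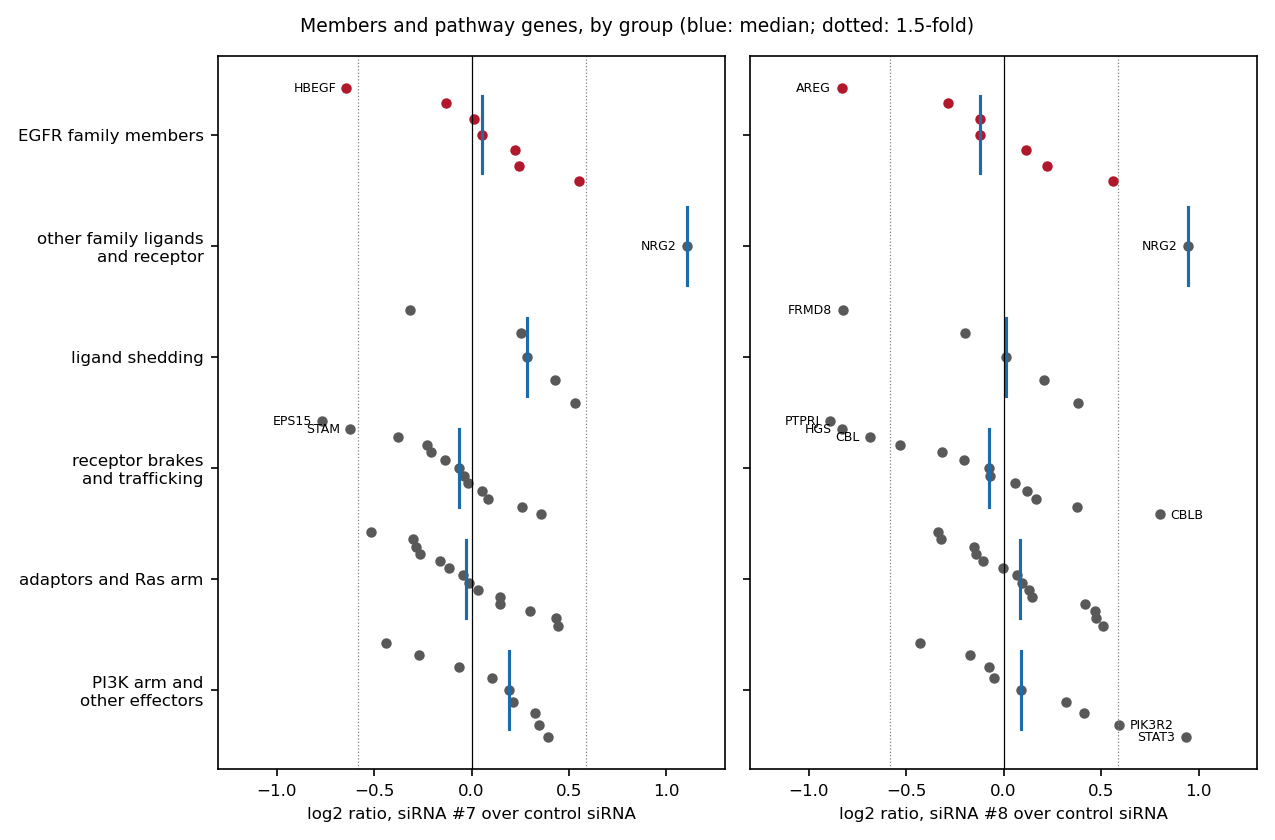
Log2 ratios to control siRNA with siRNA #7 (left) and siRNA #8 (right) for 7 family members (red) and 42 pathway genes (grey), by group. Blue lines are group medians, dotted lines mark 1.5-fold, and the genes past these lines are named. Medians of the groups plotted lie between -0.12 and 0.28 except where NRG2 stands alone in its group, and NRG2 is past the line in both panels.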

How the data were processed

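HCT116 cells were measured on Agilent SurePrint G3 arrays, 1 per condition. The authors deposited the background-subtracted intensity of each spot from Agilent Feature Extraction 11.5.1.1, not scaled between arrays, and a table of log2 values, every row of which has a median of 0 over the arrays. The names of the deposited files number the siRNAs differently from the labels, and the labels were followed. The arrays of overexpressing cells were not analysed here. Outlier-flagged spots were left out, spots of a probe were averaged on the log2 scale, and the 75th percentile of the gene probes was subtracted. A passing probe reached the 20th percentile on at least 2 of the arrays and carried the well-above-background flag on all 3. The brightest passing probe stood for a gene. Names came from RefSeq (GRCh38.p14), so array coordinates are not given.

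Members and lists were chosen with earlier results of these data known. The genes named were all members, *HOXA5*, pathway genes past 1.5-fold the same way with both siRNAs, the 2 largest ratios of each pathway group, and the 3 genes most like the member with the largest ratio. Spot-to-spot SDs were pooled in 6 ranges of signal over probes well above background, so they may understate the error of dimmer probes. Python 3.11.15, pandas 2.3.3, numpy 2.4.6 and limma 3.58.1 (R 4.3.3) were used, and the steps were tested on simulated data. The alternatives were the median of each array, the percentile over detected probes, quantile normalization, spike-in scaling, normexp with an offset of 50 on median spot signals (the files held no mean signals), the deposited log2 values, removal of the median ratio of spots within 3 rows and columns, outlier spots kept, the mean of the passing probes, a looser filter (well above background on at least 1 array of a pair), and limma on joined siRNA arrays. Precision is limited by having 1 array per condition.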

Additional observations from a re-analysis of the deposited data

Results flagged for a closer look

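In 2 genes the siRNA arrays lay on opposite sides of control siRNA, each by more than the spot-to-spot SD. The second *AREG* probe lay at 0.35 (log2) with siRNA #7 and at -2.07 with siRNA #8, a difference of -2.42. *FRMD8* had ratios of 0.53 and -0.82, a difference of -1.36. With 1 array per siRNA, neither difference was tested. Under spike-in scaling the siRNA #7 ratio of the second *AREG* probe was 0.03, within its spot-to-spot SD of 0.16.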

How the results depend on the processing

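Spike-in scaling turned the siRNA #7 ratios of *ERBB2* (-0.082) and *EREG* (-0.10), and moved the median of the members to -0.27 with siRNA #7 and -0.36 with siRNA #8, and that of the pathway genes to -0.32 and -0.20, in each case by about the shift it gives all genes. The number of members past 1.5-fold with siRNA #7 was 0 under normexp and 2 under the looser filter, which also put 1 past 2-fold, *BTC*, whose dim values give a bound only. With siRNA #8 it was 2 under the percentile over detected probes and 2 under quantile normalization, where *ERBB2* passed as well. Past 2-fold with siRNA #8 the count was 1 under spike-in scaling and 1 with the mean of the probes, *AREG* in both. The shares of all genes past these folds under the alternatives are not given, so these counts stand without a share. Limma with the siRNA arrays joined called 0 members. Normexp left the siRNA #7 ratio of *ERBB2* at 0.0078. The cause of the changes under normexp was not tested. No paired analysis was possible because there was a single array per condition, which also leaves no replicate to omit.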
